A study of Mus musculus with 4 samples.

Results

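The nuclear respiratory chain subunit genes are the genes of the cell nucleus that encode protein subunits of the mitochondrial complexes I to V. They were taken from the count table by gene symbol: Nduf followed by a, b, c, s or v and a number for complex I, Sdha to Sdhd for complex II, Uqcr genes and Cyc1 for complex III, Cox4 to Cox8 genes for complex IV, and Atp5 genes for complex V. This gave 85 of the 24421 genes in the table, with 37 in complex I, 4 in complex II, 9 in complex III, 18 in complex IV and 17 in complex V. Symbols alone decided membership, and no measured value entered the rule, though the rule was chosen with earlier results of these data known. The symbol rule also takes Atp5s and Atp5sl, whose products are not subunits of the ATP synthase. It leaves out Ndufab1, the acyl carrier protein of complex I, and the subunits encoded in mitochondrial DNA were not analysed here.

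RNA was sequenced from LSK cells, sorted from mouse bone marrow as negative for lineage markers and positive for Sca-1 and Kit, a population in which blood stem cells and multipotent progenitors are found. There were 2 libraries from Zfp521-/- mice (KO) and 2 from control littermates, given as wild type (WT). Zfp521 encodes a zinc finger transcription cofactor. Age, strain, sex and the design of the deleted allele were not given in the sources used here, and no tissue-specific deletion is named. The samples were separate RNA preparations from pooled cells. The labels do not say which animals they came from, so p-values measure only how these samples vary. In KO this may be technical, while the WT pair also differed in the sex pattern given below.

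The respiratory chain passes electrons from NADH at complex I and from succinate at complex II through coenzyme Q to complex III, then by cytochrome c to complex IV, where oxygen is reduced. Complexes I, III and IV pump protons across the inner mitochondrial membrane, and complex V, the ATP synthase, uses the returning protons to make ATP. Blood stem cells at rest are known for relying less on this pathway than dividing progenitors do.

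Zfp521 itself had 308 and 215 counts in the KO libraries, against 1561 and 1429 in the WT libraries. This is a log2 fold change of -2.19 (SE 0.23), with an adjusted p = 0.000491 by the quasi-likelihood test of edgeR, and it passed with each library left out. Counts cover the whole gene, so reads outside the deleted stretch are included. Library totals ran from 17787425 to 22000036 counts in KO and from 25813391 to 29863594 counts in WT. The ribosomal RNA precursor Rn45s took 14.6% and 9.37% of the counts in KO replicates 1 and 2, against 15.3% and 15.7% in WT replicates 1 and 2. WT replicate 2 had 5606 counts of Y-linked genes and each other library 9 to 14, so the WT group mixed a male and a female pattern while both KO libraries had the female one. The LSK markers Kit and Ly6a, which encodes Sca-1, were present in both groups, with means of 699.6 and 52.1 CPM in KO and 663 and 42.3 CPM in WT. CPM are counts scaled to a common library total with TMM factors. Of 10 LSK markers 1 was lower, Cd34 (log2 fold change -0.61, SE 0.16, edgeR adjusted p = 0.0408), and their summed level was 3363 to 3622 CPM in KO and 3191 to 3417 CPM in WT. In bulk RNA, fewer cells of a type and less RNA per cell cannot be told apart.

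Most subunit genes had somewhat lower CPM in KO, and few of them passed the test singly. Of the 85 members, 80 had enough reads to be tested, and 73 of these had a negative log2 fold change of KO over WT, 91.2%, against 48.8% of all 14140 genes tested. The median over the 80 was -0.35, against 0.02 over all genes tested. In 50 of them, 62.5%, both KO libraries lay below both WT libraries, which was so for 27.6% of all genes tested. The opposite arrangement held for 3 members, Uqcrb, Cox6b2 and Atp5s, 3.75%, against 28.8% of all genes. Few single genes passed the test: 5 members, 6.25%, were lower by the quasi-likelihood test of edgeR with an adjusted p under 0.05, where 3.01% of all genes tested were lower. The 5 were Atp5b and Atp5g2 of complex V, Cyc1 of complex III, Cox5a of complex IV, and Ndufa4, which carries a complex I name. No member was higher, where 3.77% of all genes were, and this held for unadjusted p under 0.05 and for DESeq2 (0 members each). DESeq2 called 16 members lower, 20.0%, against 5.6% of all genes tested. Over all genes 425 were lower and 533 higher, and with upper quartile factors in place of TMM 289 were lower and 664 higher.

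The number of members called lower changed with the library left out, and the share of all genes called lower rose or fell with it. Such a fit leaves 1 library in a group, so fold changes are given here in place of counts. Except without KO replicate 1, most of the 5 called members did not pass. Their log2 fold changes ran from -0.74 to -0.53 without WT replicate 1 and from -1.14 to -0.88 without WT replicate 2. They ran from -1.24 to -0.89 without KO replicate 1 and from -0.69 to -0.56 without KO replicate 2. The median over all tested members stayed negative in each case, between -0.47 and -0.29. The 4 libraries were ordered: the median member stood at -0.29 in KO replicate 1 and -0.41 in KO replicate 2, against 0.09 in WT replicate 1 and -0.10 in WT replicate 2, as log2 of its CPM over the WT mean. KO replicate 2 was below KO replicate 1 for 69 of 80 members, and WT replicate 1 was above WT replicate 2 for 61.

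**Figure D1:**
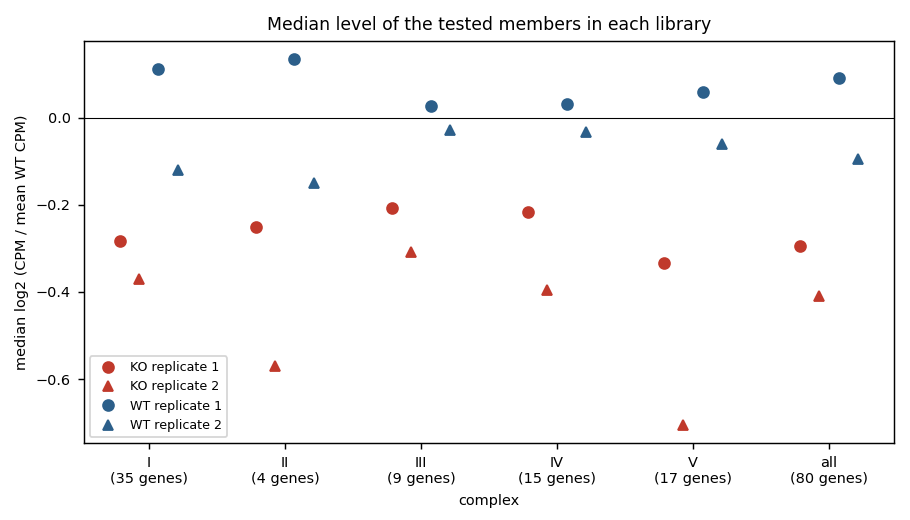
Median over the tested members of each complex of log2 of CPM in a library over the mean WT CPM, for the 2 KO libraries (red) and the 2 WT libraries (blue), with circles for replicate 1 and triangles for replicate 2. In every complex both KO medians lie below both WT medians, and over all 80 members they are -0.29 and -0.41 in KO against 0.09 and -0.10 in WT.

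The shares were also set beside level and length. More abundant genes were called lower more often, with 7.55% lower in the top quartile of genes by mean CPM, where the median log2 fold change was -0.13. The quartiles from low to high held 3, 12, 34 and 31 tested members, and 4 of the 5 called members were among the 31. The members' median was -0.28 after the trend of fold change on level was removed, an alternative added after the data were seen. Members are short, with a median union exon length of 1697 bases against 4290 bases for all tested genes with a matched length. The share of genes called lower differed little with length, from 2.34% to 3.6% over the quartiles. With the trend on length removed their median was -0.35, as before.

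**Figure D2:**
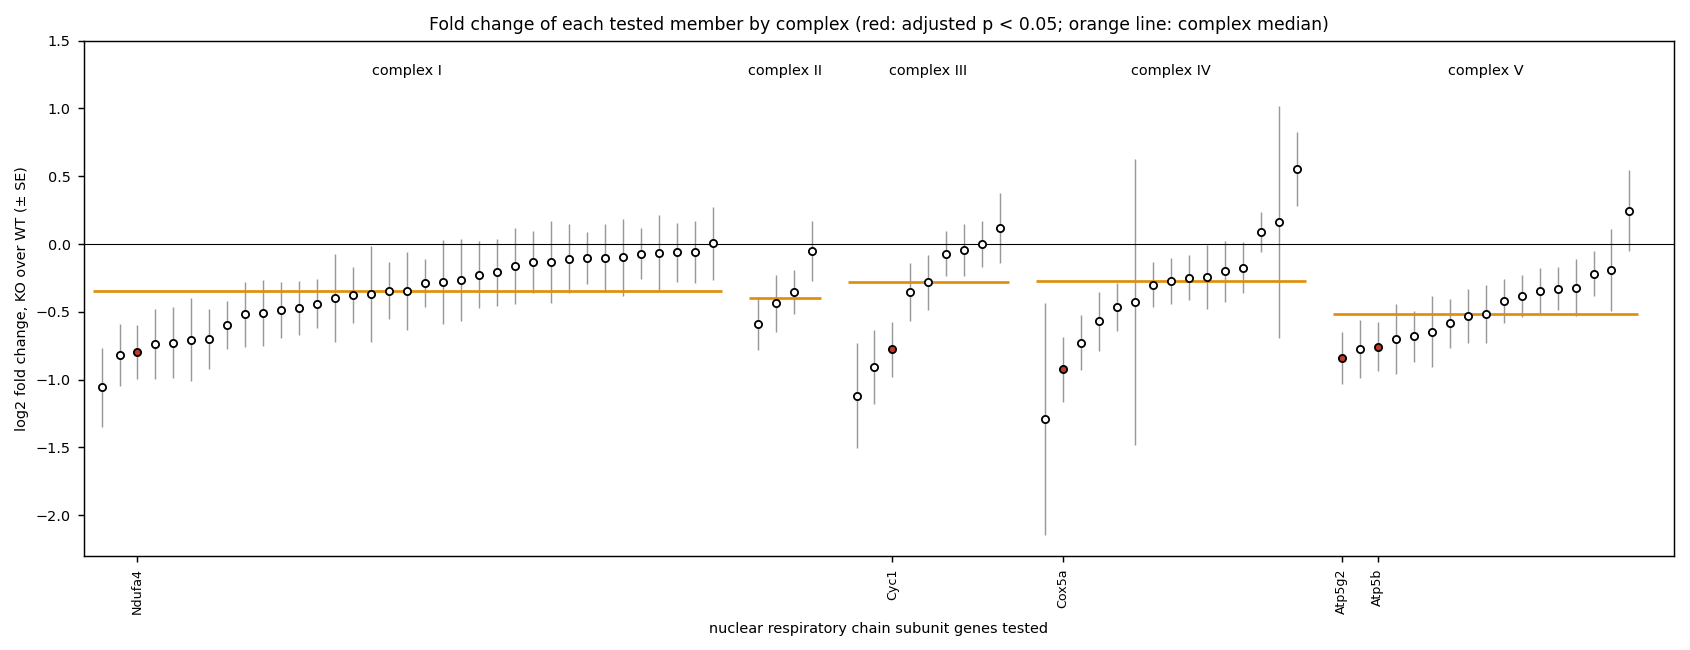
Log2 fold change of KO over WT for each of the 80 tested members, grouped by complex and ordered by value, with names under the called members, with bars of 1 SE on either side and an orange line at the median of each complex. Points lie below 0 for 73 members, and the 5 with an adjusted p under 0.05 (red) lie between -0.93 and -0.76.

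Genes of this family are known to share promoter motifs bound by NRF1, by the ETS factor GABP and by YY1, which are regulators of mitochondrial gene expression. Promoter sequences from RefSeq (GRCm38.p6) were found for 69 of the 85 members, 75 promoters in all, each covering 250 bases before to 50 after a start site. Letters searched on both strands were GCGCANGCG for NRF1, CCGGAAG for ETS factors and AAGATGGCG for YY1. The NRF1 letters stood in 28.0% of member promoters, against 12.3% of 13398 promoters of tested genes and 6.25% of 32851 promoters of all genes. For the ETS letters the shares were 21.3%, 16.3% and 8.86%, and for the YY1 letters 12.0%, 2.78% and 1.4%. A match is a description of the letters and not a binding site.

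Among tested members with a promoter, 25 of 42 whose KO libraries lay below both WT libraries held at least 1 of these motifs, 59.5%, as did 10 of the other 24, 41.7%. The difference between these shares was not tested. Counted by promoter and not by gene, at least 1 motif stood in 50.7% of member promoters and in 27.7% of promoters of all tested genes. The 250 bases upstream of the start site are shown for the 4 called members with a promoter and for Cox6a1, Uqcr11 and Ndufb4, which hold several matches or a match beside a low KO value. Capitals mark searched letters that lie whole within these bases. Uqcr11 also has an NRF1 match that starts at base -5, runs past the start site and is cut off in the sequence shown. In Atp5g2 and Cox6a1 the run of 10 capitals is a palindrome that matches the NRF1 letters on both strands with overlap.
Atp5g2, chr15:102671048-102671297, minus strand: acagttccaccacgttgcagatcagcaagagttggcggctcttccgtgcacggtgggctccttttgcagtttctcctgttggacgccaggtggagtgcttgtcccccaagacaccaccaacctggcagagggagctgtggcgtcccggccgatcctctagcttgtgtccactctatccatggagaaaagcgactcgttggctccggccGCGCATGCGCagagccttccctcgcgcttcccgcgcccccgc
Atp5b, chr10:128083057-128083306, plus strand: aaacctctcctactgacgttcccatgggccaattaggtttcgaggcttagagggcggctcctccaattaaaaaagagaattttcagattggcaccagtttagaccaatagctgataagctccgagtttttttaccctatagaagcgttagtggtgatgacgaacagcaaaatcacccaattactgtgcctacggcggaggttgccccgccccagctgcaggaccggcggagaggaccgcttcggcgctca
Ndufa4, chr6:11907451-11907700, minus strand: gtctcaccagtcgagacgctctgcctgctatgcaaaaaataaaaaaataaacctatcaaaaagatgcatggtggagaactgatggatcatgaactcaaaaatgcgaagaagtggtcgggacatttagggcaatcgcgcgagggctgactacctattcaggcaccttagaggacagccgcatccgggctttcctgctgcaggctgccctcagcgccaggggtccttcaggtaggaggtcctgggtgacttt
Cox5a, chr9:57520982-57521231, plus strand: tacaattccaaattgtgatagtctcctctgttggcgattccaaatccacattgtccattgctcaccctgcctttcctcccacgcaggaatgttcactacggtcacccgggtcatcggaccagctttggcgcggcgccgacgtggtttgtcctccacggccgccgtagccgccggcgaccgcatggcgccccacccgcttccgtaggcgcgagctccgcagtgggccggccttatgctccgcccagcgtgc
Cox6a1, chr5:115348959-115349208, minus strand: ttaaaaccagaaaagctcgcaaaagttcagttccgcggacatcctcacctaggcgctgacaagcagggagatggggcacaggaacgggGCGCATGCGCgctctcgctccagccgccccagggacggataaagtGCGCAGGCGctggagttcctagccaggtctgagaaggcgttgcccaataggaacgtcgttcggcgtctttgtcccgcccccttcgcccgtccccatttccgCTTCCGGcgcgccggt
Uqcr11, chr10:80406822-80407071, minus strand: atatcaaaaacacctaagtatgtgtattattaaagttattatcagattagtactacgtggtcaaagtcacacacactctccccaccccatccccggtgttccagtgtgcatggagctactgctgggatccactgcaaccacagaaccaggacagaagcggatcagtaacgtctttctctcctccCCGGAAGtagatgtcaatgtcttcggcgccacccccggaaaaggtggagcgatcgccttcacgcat
Ndufb4, chr16:37654369-37654618, minus strand: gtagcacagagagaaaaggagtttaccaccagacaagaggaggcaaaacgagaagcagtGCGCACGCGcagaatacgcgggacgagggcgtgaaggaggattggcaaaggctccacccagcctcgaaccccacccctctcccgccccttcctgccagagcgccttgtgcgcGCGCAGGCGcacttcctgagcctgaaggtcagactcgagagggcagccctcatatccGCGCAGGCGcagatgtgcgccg

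Of the called members shown, Atp5g2 held a match in its upstream bases, and Atp5b, Ndufa4 and Cox5a held none anywhere in their windows. Ndufb4, with 3 NRF1 matches, had overlapping groups, at 27.0 and 20.9 CPM in KO and 24.2 and 27.5 CPM in WT. Its log2 fold change was -0.11, with a 95% interval from -0.66 to 0.45.

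Complex V had the most even pattern. It has 15 ATP synthase subunit genes in the table, and in all 15 both KO libraries lay below both WT libraries, as in 27.6% of all genes tested. Their log2 fold changes ran from -0.84 to -0.22, with a median of -0.53, and 2 of the 15 were lower at the threshold, where 3.01% of all genes were. All 15 also had a negative fold change under each other scaling, filter and tool tried and with each library left out. The 2 members of this group that are not subunits differed from them: Atp5s, also known as Dmac2l, had 14.5 and 14.1 CPM in KO and 12.2 and 11.9 CPM in WT, and Atp5sl, also known as Dmac2, had 17.2 and 16.4 CPM in KO and 14.8 and 23.5 CPM in WT. Their log2 fold changes were 0.25 and -0.19 (SE 0.30 each), and neither passed the test.

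The catalytic F1 head is built from the alpha, beta, gamma, delta and epsilon subunits. Atp5b encodes the beta subunit, which carries the catalytic sites, and was the most abundant member per length, at 210 CPM per kilobase of exon in KO and 355 in WT. Its counts gave 1027 and 750.1 CPM in the KO libraries, against 1712 and 1295 CPM in the WT libraries. The groups did not overlap, and WT replicate 1 was well above the other 3 libraries. Atp5b averaged 888 ± 195 CPM in KO and 1504 ± 295 CPM in WT (SD, n = 2 each), a log2 fold change of -0.76 (SE 0.18, edgeR adjusted p = 0.0308) that puts KO at 59.1% of WT. The gene lies on chromosome 10 from 128083273 to 128090391 in mm10, on the plus strand.

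Atp5a1, the alpha subunit that alternates with beta in the head, had 593 and 453 CPM in KO, against 901 and 669 CPM in WT. The groups did not overlap, but the log2 fold change of -0.59 (SE 0.18) missed the threshold (edgeR adjusted p = 0.0712). Atp5d, the delta subunit of the rotor, came close to it at -0.77 (SE 0.21, edgeR adjusted p = 0.0519), with 96.2 and 63.4 CPM in KO and 153 and 119.9 CPM in WT. Atp5c1 and Atp5e, the gamma and epsilon subunits of the rotor, had log2 fold changes of -0.38 and -0.51.

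The c-ring turns in the membrane and is made of a single small protein that separate genes, Atp5g1, Atp5g2 and Atp5g3, encode with different import sequences. Atp5g2 was the lowest of the 3 by fold change, with 103.5 and 74.2 CPM in KO, against 174 and 144 CPM in WT. KO was at 55.9% of WT, at means of 88.9 ± 20.7 CPM in KO and 159 ± 20.6 CPM in WT (SD, n = 2 each), and the log2 fold change was -0.84 (SE 0.19, edgeR adjusted p = 0.0262). It lies on chromosome 15 from 102662864 to 102672352, on the minus strand. Atp5g1 had 95.4 and 49.4 CPM in KO, against 131 and 105 CPM in WT (log2 fold change -0.70, SE 0.26, edgeR adjusted p = 0.123). Atp5g3 had 65.5 and 52.2 CPM in KO, against 96.4 and 74.0 CPM in WT (-0.53, SE 0.20, edgeR adjusted p = 0.124). The 3 genes had the same order of libraries, with KO replicate 2 lowest and WT replicate 1 highest.

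The peripheral stalk holds the head still against the rotor. Among its genes Atp5o, the subunit that joins stalk and head, had 58.8 and 46.4 CPM in KO and 81.3 and 87.5 CPM in WT (log2 fold change -0.68, SE 0.19, edgeR adjusted p = 0.051). Its value is less certain, since antisense transcripts annotated opposite it overlap up to 18.1% of its exon length. A second entry of the same symbol on the same strand overlaps 12.3%. Other members overlap other genes too, by up to 39% of their exon length. Atp5f1, Atp5h and Atp5j had log2 fold changes of -0.22, -0.42 and -0.33. The small membrane subunits Atp5k, Atp5l and Atp5j2 had -0.65, -0.35 and -0.32. None of these 7 genes passed the test.

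**Figure D3:**
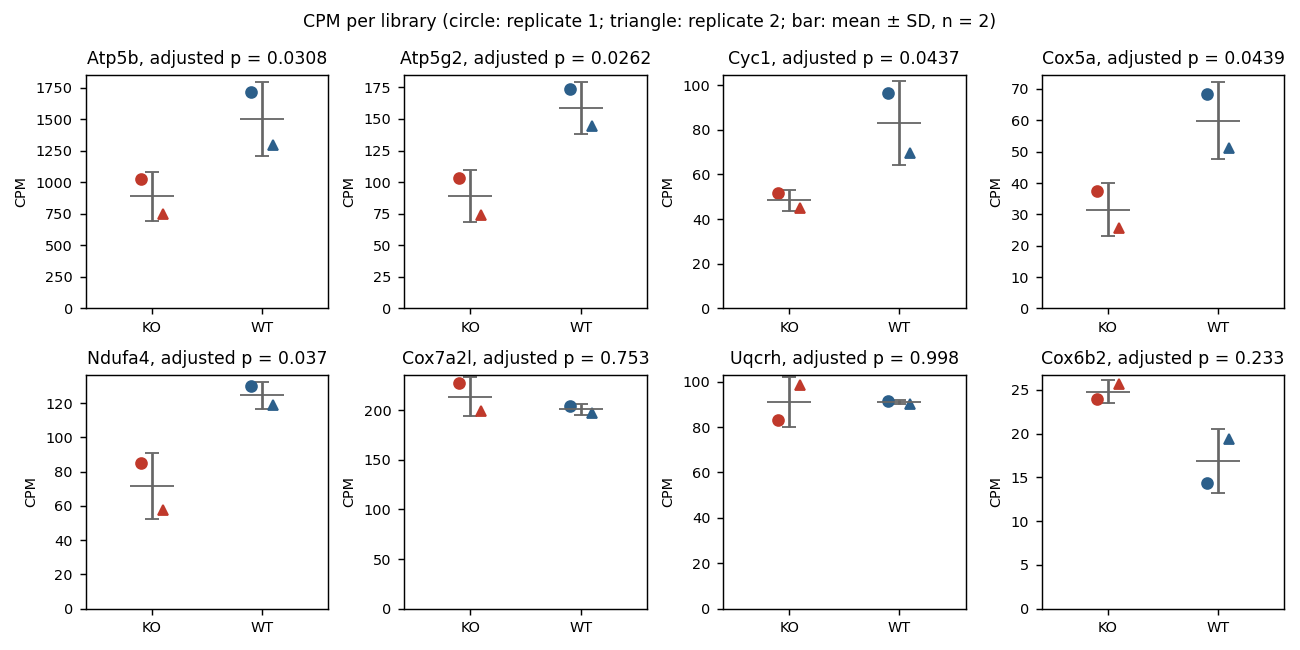
CPM per library, on linear axes from 0, of the 5 members called lower and of Cox7a2l, Uqcrh and Cox6b2, with circles for replicate 1, triangles for replicate 2, and bars for the mean ± SD of 2 libraries. For Atp5b, Atp5g2, Cyc1, Cox5a and Ndufa4 both KO libraries lie below both WT libraries, and for Cox6b2 both lie above.

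Complex III takes electrons from reduced coenzyme Q and hands them to cytochrome c. Of its 9 members 1 was lower, where 3.01% of all genes tested were, and 7 had a negative fold change, where 48.8% of all genes did. The median log2 fold change was -0.28. Cyc1, which encodes cytochrome c1, the subunit that passes the electron to cytochrome c, had 51.8 and 45.0 CPM in KO, against 96.3 and 69.6 CPM in WT. Cyc1 stood at 48.4 ± 4.81 CPM in KO and 82.9 ± 18.9 CPM in WT (SD, n = 2 each), with a log2 fold change of -0.78 (SE 0.20, edgeR adjusted p = 0.0437). The KO libraries were close together and the WT libraries were spread. Cyc1 lies on chromosome 15 from 76343523 to 76346260, on the plus strand.

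Uqcrq and Uqcr11, small accessory subunits of complex III, had larger fold changes with wider errors. Uqcrq had 16.8 and 6.50 CPM in KO, against 27.3 and 23.5 CPM in WT (log2 fold change -1.12, SE 0.39, edgeR adjusted p = 0.103). KO replicate 2 stood far below the other 3 libraries. Uqcr11 had 18.8 and 13.1 CPM in KO, against 28.5 and 31.4 CPM in WT (-0.91, SE 0.27, edgeR adjusted p = 0.0674). Uqcrfs1, the Rieske iron-sulfur protein, had a log2 fold change of -0.36 (SE 0.22, edgeR adjusted p = 0.332).

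The other members of complex III lay closer to 0, and none passed the test. Uqcrh, the hinge protein, had 83.2 and 98.7 CPM in KO and 91.5 and 90.3 CPM in WT, a log2 fold change of 0.0009 with a 95% interval from -0.37 to 0.37. Uqcrb had 20.6 and 20.5 CPM in KO and 18.8 and 19.1 CPM in WT, and its log2 fold change of 0.12 did not pass (SE 0.26, edgeR adjusted p = 0.822). The core protein Uqcrc1 had 49.0 and 47.4 CPM in KO, both below the 67.1 and 50.2 CPM in WT, with a log2 fold change of -0.28 (SE 0.20, edgeR adjusted p = 0.413). The other core protein, Uqcrc2, had -0.07, and Uqcr10 had -0.05. The 9 genes of 1 complex ran from -1.12 to 0.12.

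Complex IV reduces oxygen, and its nuclear genes encode subunits around the catalytic core. Of 18 members 15 were tested, 1 was lower, where 3.01% of all genes tested were, and the median log2 fold change was -0.27. Cox5a, a subunit at the matrix face, had 37.5 and 25.5 CPM in KO, against 68.5 and 51.1 CPM in WT. The groups did not overlap. Means were 31.5 ± 8.47 CPM in KO and 59.8 ± 12.3 CPM in WT (SD, n = 2 each), and the log2 fold change was -0.93 (SE 0.24, edgeR adjusted p = 0.0439). Cox5a lies on chromosome 9 from 57521274 to 57532426, on the plus strand, and an annotated transcript on the other strand overlaps 12.8% of its exon length.

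Several broadly expressed subunits of complex IV have an isoform made mainly in other tissues. Of the 10 broadly expressed genes all had a negative fold change, and in 7 both KO libraries were below both WT libraries, as in 27.6% of all genes tested. Cox6a1 had 70.5 and 48.7 CPM in KO, against 107 and 90.3 CPM in WT (log2 fold change -0.73, SE 0.21, edgeR adjusted p = 0.057). Cox6b1, Cox8a and Cox4i1 had -0.57, -0.47 and -0.25. Cox8a and Cox6a1 were, per length of exon, the most abundant members of complex IV in WT, at 132 and 84.9 CPM per kilobase in KO and 182 and 141 in WT.

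The tissue-restricted isoforms were rare or absent. Cox6b2, the testis isoform of Cox6b1, was the exception, with 23.9 and 25.7 CPM in KO and 14.3 and 19.4 CPM in WT. Its log2 fold change of 0.56 was the highest among the tested members and did not pass (SE 0.27, edgeR adjusted p = 0.233), beside -0.57 for Cox6b1. Cox6a2 and Cox7a1, known from heart and skeletal muscle, and Cox4i2, an isoform known from lung, had 4 to 111 counts per library and did not pass, with log2 fold changes of -1.29 (SE 0.86), 0.16 (SE 0.86) and -0.43 (SE 1.06). Cox7b2 and Cox8c had no read in any library, which allows up to 0.152 CPM in the shallowest one by a floor of 3 counts. Cox8b had 0 and 6 counts in KO and 0 and 0 in WT, and Ndufa4l2, a relative of Ndufa4, had 0 and 9 in KO and 1 and 0 in WT.

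Cox7a2l encodes a factor that joins complexes III and IV into supercomplexes, and is related in sequence to Cox7a1 and Cox7a2. It had 228 and 199.5 CPM in KO and 205 and 197 CPM in WT. Its log2 fold change was 0.09, with a 95% interval from -0.23 to 0.41, and Cox7a2 had -0.20 (SE 0.22).

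Complex I is the largest complex and the entry point for electrons of NADH. Of its 37 members 35 were tested, 34 had a negative fold change, and the median was -0.35. In 21 both KO libraries lay below both WT libraries, and in none above, where the shares of all genes tested were 27.6% and 28.8%. The 1 of 35 past the threshold, no larger a share than the 3.01% of all genes, was Ndufa4, which was first described in complex I and was later assigned to complex IV. It had 85.2 and 57.8 CPM in KO, against 130.2 and 119 CPM in WT. Ndufa4 averaged 71.5 ± 19.4 CPM in KO and 125 ± 7.93 CPM in WT (SD, n = 2 each), with a log2 fold change of -0.80 (SE 0.20, edgeR adjusted p = 0.037). It lies on chromosome 6 from 11900292 to 11907497, on the minus strand. With Ndufa4 counted in complex IV, no gene of complex I passed and 2 of complex IV did.

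The 7 nuclear core subunits of complex I carry the flavin and the iron-sulfur clusters. Their log2 fold changes were all negative, from -0.74 to -0.06, with a median of -0.47, and none passed in edgeR. Of the 7, 3 had an unadjusted p under 0.05 in edgeR. Such counts, here and below, have no share of all genes at that cutoff beside them. DESeq2 called 1 of the 7 lower, where it called 5.6% of all genes tested lower. Ndufs7, which carries the last cluster, had 23.3 and 16.5 CPM in KO, against 31.2 and 35.2 CPM in WT (-0.74, SE 0.26, edgeR adjusted p = 0.105). Ndufv1, the flavin subunit, had 45.4 and 42.0 CPM in KO and 53.3 and 38.0 CPM in WT, with overlapping groups and a log2 fold change of -0.06 (95% interval -0.54 to 0.42). Ndufs1 likewise overlapped, at 44.0 and 70.02 CPM in KO and 63.5 and 55.3 CPM in WT, and Ndufs3, Ndufs8 and Ndufv2 had -0.47, -0.13 and -0.52.

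Accessory subunits of complex I surround this core and number 27 among the tested members, with Ndufa4 left aside. Their median log2 fold change was -0.29, none passed, and 7 had an unadjusted p under 0.05. DESeq2 called 3 lower, where it called 5.6% of all genes tested lower. Ndufc1 had the lowest value, with 11.1 and 10.6 CPM in KO, against 25.8 and 19.4 CPM in WT (-1.06, SE 0.29, edgeR adjusted p = 0.0516). Ndufb5 had 32.5 and 26.0 CPM in KO, against 58.3 and 45.0 CPM in WT (-0.82, SE 0.23, edgeR adjusted p = 0.0518), and shares 12.3% of its exon length with Mrpl47 on the other strand. Ndufa12 had a log2 fold change of -0.70 (SE 0.22, edgeR adjusted p = 0.0809). At the other end Ndufa1 had 17.4 and 19.8 CPM in KO and 19.2 and 17.8 CPM in WT, a log2 fold change of 0.0042. Ndufs5 had 3 and 3 counts in KO and 9 and 4 in WT and was not tested. Processed copies of such genes exist in the genome, and reads they share with the parent gene could not be followed here.

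The 3 X-linked members were Ndufa1, Ndufb11 and Cox7b. Their log2 fold changes were 0.0042, -0.11 and -0.30, and none passed. Ndufb11 had 58.5 and 54.5 CPM in KO and 67.9 and 53.7 CPM in WT, where the second WT value is the library with the male pattern. Cox7b had 75.9 and 67.5 CPM in KO and 89.2 and 87.2 CPM in WT.

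Complex II is also an enzyme of the tricarboxylic acid cycle and is encoded entirely in the nucleus. None of its 4 genes passed in edgeR, 2 had an unadjusted p under 0.05, and the median log2 fold change was -0.40. DESeq2 called 1 lower, where it called 5.6% of all genes tested lower. Sdhc, a membrane anchor, had 66.8 and 49.4 CPM in KO, against 90.3 and 84.3 CPM in WT (-0.59, SE 0.19, edgeR adjusted p = 0.0887). Sdha, the flavin subunit that oxidises succinate, had 199 and 187 CPM in KO, against 277 and 216 CPM in WT (-0.36, SE 0.16, edgeR adjusted p = 0.2). Sdhd, the other anchor, had 116 and 79.2 CPM in KO and 150.5 and 114 CPM in WT, with overlapping groups (-0.44, SE 0.21). Sdhb, the iron-sulfur subunit, had 36.1 and 30.7 CPM in KO and 37.1 and 32.1 CPM in WT (-0.05, 95% interval -0.54 to 0.44).

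**Figure D4:**
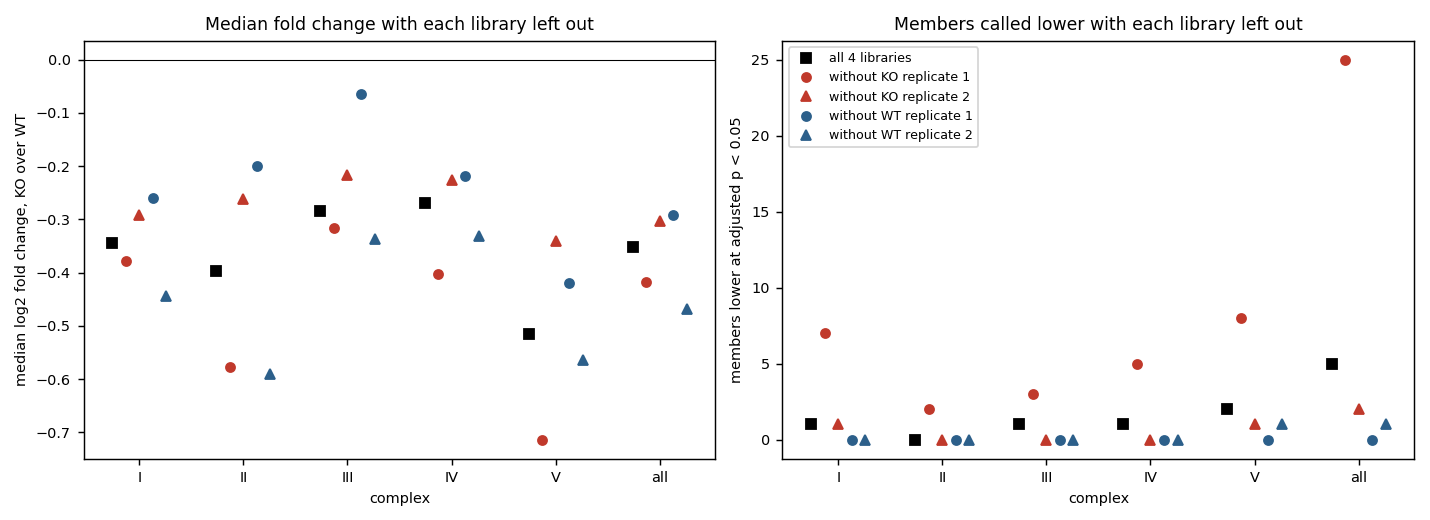
Left, median log2 fold change of KO over WT in each complex with all 4 libraries (black squares) and with each library left out; right, the number of members lower at an adjusted p under 0.05 in the same fits. All medians are below 0, while the count over all members changes with the library left out, as does the share of all genes called lower.

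Other genes of the pathway were compared through lists, beside 3.01% lower and 3.77% higher among all genes tested in edgeR. In the list of electron carriers and adenine nucleotide exchange 4 of 24 tested genes were lower and none higher in edgeR. In this list 1 gene had an unadjusted p under 0.05 and a positive fold change, and DESeq2 called none higher. The median was -0.27 on the log2 scale. Of the 24, 15 had a negative fold change, where 48.8% of all genes tested did. The coenzyme Q genes of the list went both ways. Cycs, cytochrome c itself, had 70.4 and 56.5 CPM in KO, against 116 and 92.9 CPM in WT (-0.72, SE 0.19, edgeR adjusted p = 0.0442). Slc25a5, an exchanger of ADP and ATP across the inner membrane, had 156 and 126 CPM in KO, against 269 and 197 CPM in WT (-0.73, SE 0.18, edgeR adjusted p = 0.0393). The outer membrane channel genes Vdac3 and Vdac1 were lower too, at -1.01 and -0.65 (edgeR adjusted p = 0.0163 and 0.0372). With upper quartile factors Vdac3 alone was lower. The calls in the list also changed with the library left out. Its median was then -0.17 without WT replicate 1 and -0.38 without WT replicate 2. It was -0.18 without KO replicate 1 and -0.24 without KO replicate 2.

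Of 17 tricarboxylic acid cycle genes 16 had a negative fold change, where 48.8% of all genes tested did, with a median of -0.50. Of the 17, 2 were lower, 11.8%, against 3.01% of all genes tested. Cs, citrate synthase, had 142 and 131 CPM in KO, against 216 and 194 CPM in WT (-0.59, SE 0.15, edgeR adjusted p = 0.0405). Idh2, a mitochondrial isocitrate dehydrogenase, had 58.8 and 54.1 CPM in KO, against 95.7 and 83.4 CPM in WT (-0.67, SE 0.18, edgeR adjusted p = 0.045). Mdh2 and Fh1, malate dehydrogenase and fumarase, had -0.66 and -0.62 and missed the threshold (edgeR adjusted p = 0.063 and 0.0662). Neither Cs nor Idh2 passed without WT replicate 1, WT replicate 2 or KO replicate 2, or with upper quartile factors, and 8 of the 17 genes were lower without KO replicate 1.

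Assembly factors help build the complexes and are not part of them. None of 45 passed in edgeR, 7 had an unadjusted p under 0.05 with a negative fold change, DESeq2 called none, and the median was -0.28. Cox10, Coa3 and Coa5, all factors of complex IV, had log2 fold changes of -0.72, -0.90 and -0.35, and Sdhaf1, a factor of complex II, had -1.23. Without KO replicate 1, 3 assembly factors were lower and 1 higher, and without KO replicate 2, 1 was lower. Among 23 regulators of mitochondrial biogenesis none passed in edgeR or DESeq2, 3 had an unadjusted p under 0.05 with a positive fold change and none with a negative one, and the median was -0.07. That median was 0.01 with upper quartile factors, and with a KO library left out it was -0.19 (replicate 1) or -0.06 (replicate 2). With a WT library left out it was -0.14 (replicate 1) or -0.20 (replicate 2). Without KO replicate 1, where a larger share of all genes was called lower, the regulators Myc and Pprc1 were lower too.

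For the factors named with the promoter motifs, and for Tfam, the 95% interval of the fold change included 0. Nrf1 had 68.1 and 53.2 CPM in KO and 75.1 and 66.7 CPM in WT (log2 fold change -0.22, 95% interval -0.64 to 0.19). Gabpa, the DNA-binding part of GABP, had 183 and 199 CPM in KO and 227 and 219 CPM in WT (-0.22, 95% interval -0.54 to 0.10). Its exons overlap 12.7% of the exon length of Atp5j on the other strand. Yy1 had -0.20 (95% interval -0.55 to 0.15) and Tfam, which packages and transcribes mitochondrial DNA, had -0.04 (95% interval -0.55 to 0.47). Polg2 and Ssbp1, which act in mitochondrial DNA replication, had 0.99 and 0.44 (edgeR adjusted p = 0.104 and 0.118), Mterf2 had 1.05, and Gabpb1, the partner of Gabpa in GABP, had -0.33.

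**Figure D5:**
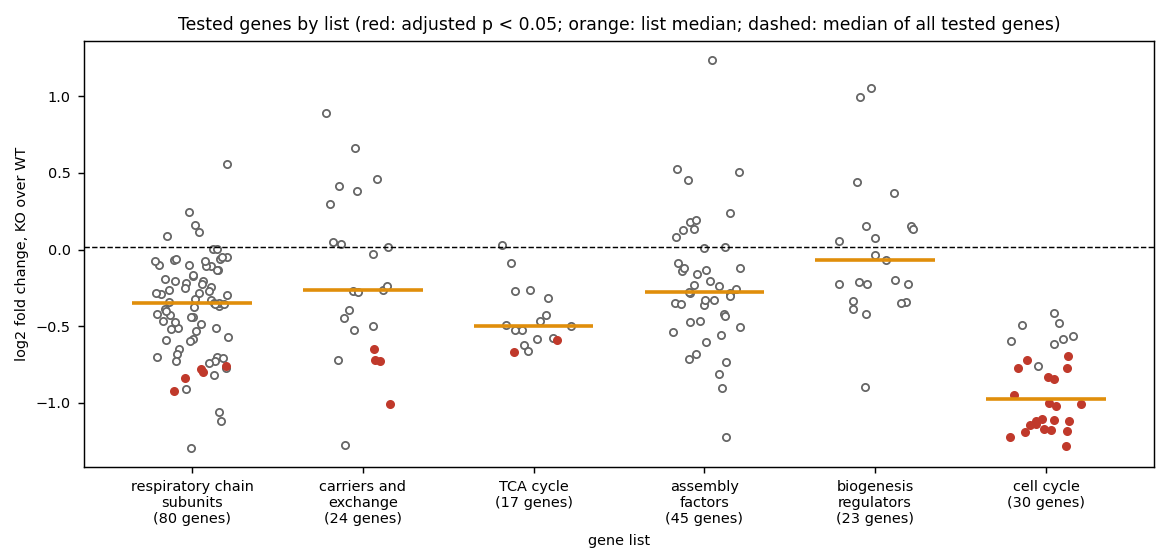
Log2 fold change of KO over WT for each tested gene of the respiratory chain subunits, the 4 other mitochondrial lists and the cell cycle list, with red points for an adjusted p under 0.05, an orange line at each list's median and a dashed line at the median of all genes tested. The subunit median of -0.35 lies between those of the tricarboxylic acid cycle (-0.50) and of the assembly factors (-0.28), and the cell cycle list lies lowest at -0.97.

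Other cell programmes and cell types moved with the same contrast. Of all genes tested, 3.01% were lower and 3.77% higher in edgeR. Of 30 cell cycle genes 22 were lower and none higher in edgeR (DESeq2 and unadjusted p gave none higher), with a median of -0.97 and a summed level of 3974 to 4081 CPM in KO and 6973 to 7005 CPM in WT. With each library left out, all 30 cell cycle genes kept a negative fold change. The list median was then -0.9498 without WT replicate 1 and -1.0037 without WT replicate 2. It was -0.9548 without KO replicate 1 and -0.8537 without KO replicate 2. DESeq2 called 26 of the 30 lower, where it called 5.6% of all genes tested lower. With upper quartile factors 20 were lower, where 2.04% of all genes were. Summed CPM of 10 dendritic cell markers ran from 858 to 1045 in KO and from 136.1 to 136.3 in WT, with 7 higher. For 10 mast cell and basophil markers the sums were 137 to 227 in KO and 19.8 to 22.5 in WT, with 7 higher. Neutrophil markers summed to 832 to 1076 in KO and 397 to 560.3 in WT (6 of 10 higher), and monocyte and macrophage markers to 601 to 682 in KO and 440.4 to 481 in WT (3 of 10 higher). Erythroid markers summed to 206 to 221 in KO and 26.1 to 98.3 in WT, with 1 of 6 tested higher. Megakaryocyte markers summed to 118 to 122 in KO and 50.1 to 53.9 in WT, with 3 of 9 tested higher. B cell markers summed to 77.7 to 106 in KO and 422 to 519 in WT, with 8 of 10 lower, and T and NK cell markers to 43.8 to 56.0 in KO and 40.1 to 42.8 in WT, with none of 6 past the threshold in edgeR or DESeq2 and 1 in each direction at an unadjusted p under 0.05. The dendritic cell marker Batf3 had no read in WT, and the erythroid markers Hba-a1 and Hbb-bt had none in any library. Whether the cell cycle genes, these cell types, depth or the Rn45s share have a part in the subunit values was not tested.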

How the data were processed

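RNA of 2 KO and 2 WT samples was sequenced, per the labels' protocols, from libraries made with 20 ng of total RNA and read for 76 cycles. The authors deposited raw read counts per gene symbol. The submitters' processing notes name the build mm10 and the tools HTSeq 0.8.0, Picard 2.9.4, SAMtools 1.5 and TopHat2 2.1.1. The annotation, strand setting and handling of duplicates were not given in the sources used here, so reads of overlapping genes on opposite strands, and of near-identical copies, cannot be told apart.

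Counts were tested in edgeR 4.0.16 (R 4.3.3) with TMM factors, filterByExpr (minimum count 10, minimum total 15) and the quasi-likelihood test of KO over WT, with no covariate. Adjustment followed Benjamini and Hochberg across the 14140 genes tested, and the threshold was 0.05. The SE is the log2 fold change divided by the root of its F statistic, and 95% intervals use its degrees of freedom. DESeq2 1.42.0 was an alternative. The steps were tested on simulated data. Symbols were matched to GENCODE M21 for positions and union exon lengths, 23376 directly and 657 through a synonym. Library totals were 17787425 to 29863594 counts, and floors of 3 counts cover counting error only.

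The members, the lists and the rule for named genes were chosen with earlier results of these data known. By that rule the text names each called member, each with a positive fold change, up to 5 members per complex with the smallest p, the catalytic core, isoform sets and members that are no subunit, and up to 4 genes of each other mitochondrial list. Ndufb4, the other members given by fold change alone, Nrf1, Gabpa, Yy1, Tfam and the promoters shown were chosen after their values were seen. Replicate libraries were distinct: their chi-square divided by the number of genes was 54.3 in the KO pair and 39.5 in the WT pair. Alternatives were other scalings, filters and tools, removal of Rn45s, of a length trend and of a level trend, a replicate block, and each library left out. Counts and medians cover all tested members, and 1 value by gene is not reported here.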

Additional observations from a re-analysis of the deposited data

How the results depend on the processing

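Over all members 5 were lower. The number was 2 with upper quartile factors, 16 in DESeq2 and 18 with no filter, and 0 to 25 with each library left out. By complex I to V the 1, 0, 1, 1 and 2 lower members became 0, 0, 0, 0 and 2 with upper quartile factors, 5, 1, 3, 2 and 5 in DESeq2, and 5, 1, 3, 2 and 7 with no filter. Complex V had 4 with the stricter filter of 50 counts in 2 libraries. With Ndufa4 counted in complex IV, complex I had 0 and complex IV had 2. With each library left out the ranges were 0 to 7, 0 to 2, 0 to 3, 0 to 5 and 0 to 8. All genes lower, 425, became 792 in DESeq2, 987 with no filter and 95 to 1161 with a library left out, and all genes higher, 533, became 878, 1056 and 160 to 997. The cause of these changes was not tested.

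No member was higher under any alternative run. Median log2 fold changes kept a negative sign in every complex and alternative. With a library left out they ran from -0.44 to -0.26, -0.59 to -0.20, -0.34 to -0.064, -0.40 to -0.22 and -0.71 to -0.34 in complexes I to V, and from -0.47 to -0.29 over all members. With upper quartile factors the all-gene median was 0.10, in place of 0.02, and the member median was -0.27. They took Cox5a, Cyc1 and Ndufa4 out of the called genes (adjusted p = 0.0593, 0.0621 and 0.0521 in edgeR). Without Rn45s, and with DESeq2 size factors, the same 5 members were called.

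The labels number replicates in both groups, but nothing says that a number marks a shared animal or day. The differences of replicate 1 minus replicate 2 correlated between KO and WT at 0.08 over the 14140 genes tested and at -0.37 over the 80 members. A correlation over genes does not see a shift that the members share. Replicate 1 was above replicate 2 for 69 of the 80 members in KO and for 61 in WT. The correlations therefore cannot decide on pairing, and with no label for it the numbers were not taken to pair the samples. With the replicate block 25 members were lower, 8, 2, 3, 3 and 9 in complexes I to V, with 1314 of all genes lower and 1312 higher. With the block 8 genes of the carrier and exchange list and 11 of the tricarboxylic acid cycle were lower, and 2 biogenesis regulators were lower and 2 higher.

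With 2 libraries per group, changes of the size seen in most members were mostly not called, and 5 members had too few reads to be tested.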
